A study of Drosophila melanogaster with 8 samples.

Results

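The genes followed act in the cell cycle and in nucleotide supply, and were Cdk1, CycA, CycE, stg, E2f1, E2f2, RnrL, RnrS, Mcm2 and Mcm5. Their sites were the entries whose annotated gene name is one of these 10 names, which gave 14 of the 14357 entries in the authors' deposited table. The 14 entries belonged to 7 genes, of 4755 gene names in all. E2f1, Mcm2 and Mcm5 had no entry.

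RNA polymerase II (RNAPII) occupancy was measured by chromatin immunoprecipitation and sequencing in S2 cells, a hemocyte-like embryonic line of Drosophila melanogaster. The contrast was a knockdown of H1, the linker histone, against a control named LacZ after a bacterial gene that flies lack. Each condition had 2 RNAPII precipitations and 2 inputs of 10% of the chromatin, 8 libraries in all, and all cells had been cross-linked in 1.8% formaldehyde over 10 minutes. The labels state neither the knockdown method nor whether the replicates were separate cultures. The authors' p-values therefore reflect differences among these libraries alone, which may be technical.

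The files hold 1 mean concentration per condition and site, on the log2 scale, and 1 pooled peak list per condition. Depth and values per library were not known here, so no SD is given. A fold below is the log2 concentration in H1 knockdown minus that in LacZ, and positions are in dm3. Of 10 hemocyte markers, 7 had a promoter entry, among them Hml, Pxn and eater, while srp had entries away from its promoter and NimC1 and Sr-CI had none. Among markers of other cell types, elav had a promoter entry of 3 neuronal genes and bam of 3 germline genes, and no muscle, fat body or gut marker had one.

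The cell cycle is driven by cyclin-dependent kinases, which are active only when bound to a cyclin. Cyclin E acts at entry into S phase, and cyclin A with Cdk1 acts at mitosis. E2F factors control genes of S phase, in flies with E2f1 as the main activator and E2f2 as a repressor. Ribonucleotide reductase, made of a large and a small subunit, supplies the deoxynucleotides that replication uses, and Mcm proteins form the helicase that opens DNA at origins. RNAPII that has started a gene often pauses a short way downstream of the transcription start site (TSS), so occupancy at a promoter is not a measure of the transcript. In bulk chromatin, more polymerase per cell and more cells with polymerase at a gene cannot be told apart.

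In the authors' deposited table, made with DiffBind, none of the 14 entries had an FDR under 0.05, and 0% of all entries did. All 14 had an FDR of 1. At an unadjusted p under 0.05, the rule behind the authors' own calls, 0 of the 14 were called in either direction, against 3.99% of all entries called higher and 0.0557% called lower. Of the 10 entries annotated as promoters, 8 had a fold above 0, as did 93.5% of all promoter entries. Overlapping entries of a gene share reads and are not separate observations.

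At the promoter entry of highest concentration, RnrL, E2f2 and Cdk1 had the highest folds, and RnrS, CycE and stg had the lowest, with CycA between them at its 5' UTR. For Cdk1 this place rests on the wider of its entries, since its LacZ entry had a fold of 0.20 in the authors' deposited table, below both entries of CycA. For CycE it rests on an entry of the LacZ list alone. The H1 knockdown entry overlapping it, named lncRNA:CR44974, had a fold of 0.23 in the authors' deposited table. At the promoter entry of highest concentration, 6 of the genes had a median fold of 0.225. Over all 4000 genes with a promoter entry the median was 0.16, and 3 of the 6 lay above it. The members' median depended on the entry used: it was 0.16 at the promoter entry closest to the TSS and 0.12 with the LacZ list only, which has promoter entries of 5 of the genes. CycA had no entry annotated as a promoter and is outside this median.

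**Figure D1:**
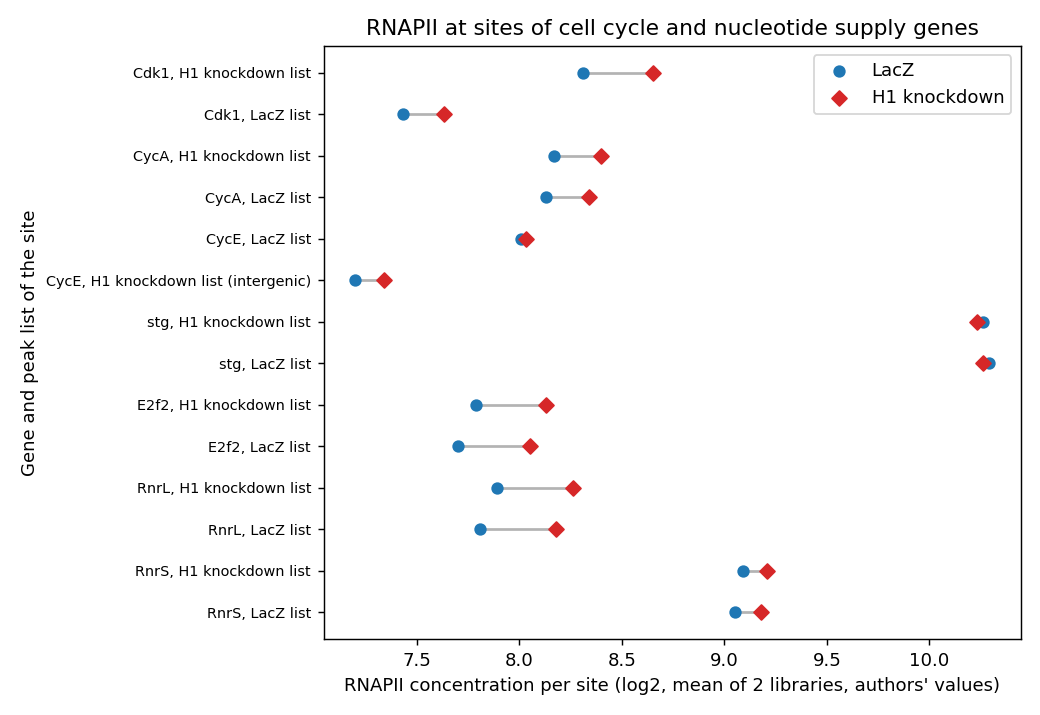
RNAPII concentration (log2, the authors' mean per condition) at the 14 entries of the 7 genes, with circles for LacZ, diamonds for H1 knockdown and a line joining both. The diamonds lie to the right at RnrL, E2f2, Cdk1 and CycA, and both symbols nearly coincide at stg and at the promoter entry of CycE.

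Cdk1 encodes the kinase that drives mitosis. Its entry in the H1 knockdown list spanned 937 bp (2L, 10385968 to 10386904), with concentrations of 8.31 in LacZ and 8.65 in H1 knockdown in the authors' deposited table. The fold there was 0.34, with a p of 0.0577. The LacZ list held a narrower entry of 340 bp inside it (10385971 to 10386310), with concentrations of 7.43 and 7.63, a fold of 0.20 and a p of 0.356 in the authors' deposited table. The 2 folds of Cdk1 thus differ with the width of the entry. Subtracting the narrow entry from the wide one left 597 bp with 145 normalised reads in LacZ and 204 in H1 knockdown, a fold of 0.49 (0.46 to 0.52 from the rounding of the deposited values alone). Both entries were annotated as the promoter of mRpS7, a mitochondrial ribosomal protein gene, although Cdk1 was the nearest gene. The TSS of Cdk1 was placed at 10386262 on the - strand, so nearly all of the 597 bp outside the narrow entry lies upstream of it. Signal of mRpS7 and of Cdk1 cannot be told apart in either entry.

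CycA, which encodes cyclin A, had entries annotated to the 5' UTR of its first exon, with centres 106 and 121 bp downstream of a TSS. The H1 knockdown entry (3L, 11826327 to 11826817) had concentrations of 8.17 in LacZ and 8.40 in H1 knockdown, a fold of 0.23 and a p of 0.18 in the authors' deposited table. For the LacZ entry (11826337 to 11826777) the authors' deposited table gave 8.13 and 8.34, a fold of 0.21 and a p of 0.226. These overlapping entries share reads, so their likeness is not a replication.

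CycE encodes cyclin E. The promoter entry under its name came from the LacZ list (2L, 15746358 to 15746717), with concentrations of 8.01 in LacZ and 8.03 in H1 knockdown, a fold of 0.02 and a p of 0.901 in the authors' deposited table. In the H1 knockdown list the same place lay inside a wider entry of 1053 bp (15745646 to 15746698), assigned to the noncoding gene lncRNA:CR44974, with a fold of 0.23 and a p of 0.149 in the authors' deposited table. The wide entry covered 341 bp of the CycE entry. A separate LacZ entry of lncRNA:CR44974 (15745688 to 15746094) had a fold of 0.36 and a p of 0.0573 in the authors' deposited table. Within this one region the LacZ entry named lncRNA:CR44974 had the higher fold and the entry named CycE a fold near 0. This difference was not tested. The TSS of lncRNA:CR44974 was placed at 15746257 on the + strand, between these LacZ entries. The entry under its name thus lies upstream of that start and the CycE entry downstream. The names of the entries therefore do not separate the signal of both genes. The second entry named CycE was intergenic, 8200 bp downstream of a CycE TSS (15723395 to 15723773), with a fold of 0.14 and a p of 0.523 in the authors' deposited table.

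The gene stg encodes String, the Cdc25 phosphatase that activates Cdk1. Its promoter carried the most RNAPII of the 7 genes, with concentrations of 10.29 in LacZ and 10.26 in H1 knockdown at the LacZ entry (3R, 25080444 to 25081805) in the authors' deposited table. The fold was -0.02 with a p of 0.861. At the H1 knockdown entry (25080479 to 25081794) the authors' deposited table gave 10.26 and 10.23, a fold of -0.03 and a p of 0.855. Both entries are among the 5% of promoter entries with the lowest folds, at percentiles 4.3 and 3.5. The enrichment over input was 44.5 in the LacZ list and 46.3 in the H1 knockdown list by the authors' peak caller, at percentiles 99.2 and 98.9 of their own lists.

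E2f2, the repressive E2F, had concentrations of 7.79 in LacZ and 8.13 in H1 knockdown at its H1 knockdown entry (2L, 21155981 to 21156393), with a fold of 0.33 and a p of 0.0765 in the authors' deposited table. The LacZ entry (21156005 to 21156364) had 7.70 and 8.05, a fold of 0.35 and a p of 0.0674 in the authors' deposited table. Both were annotated as the promoter of Mpp6 as well, so the signal is not that of E2f2 alone.

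RnrL encodes the large subunit of ribonucleotide reductase and had the highest fold of the 7 genes. Its H1 knockdown entry (2L, 10327616 to 10328101) had concentrations of 7.89 in LacZ and 8.26 in H1 knockdown, a fold of 0.37 and a p of 0.065 in the authors' deposited table. The LacZ entry (10327619 to 10328050) had 7.81 and 8.18, a fold of 0.36 and the same p in the authors' deposited table, and was annotated to the termination site of Schip1. It lies within the H1 knockdown entry, so the signal of both may not be that of RnrL alone. RnrS encodes the small subunit of the same enzyme, and both of its entries were annotated as the promoter of CG34231, so their signal is not that of RnrS alone. Its entries (2R, 7872463 to 7873165 and 7872477 to 7873146) both had a fold of 0.12, with p-values of 0.484 and 0.481 in the authors' deposited table. Concentrations at the wider RnrS entry were 9.09 in LacZ and 9.21 in H1 knockdown in the authors' deposited table. The difference in fold between the entries of the 2 subunit genes was not tested.

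On a linear scale, normalised reads in H1 knockdown were 29.2% higher than in LacZ at the H1 knockdown entry of RnrL, 26.6% at that of Cdk1 (14.9% at its LacZ entry), 25.7% at that of E2f2 and 17.3% at that of CycA. The difference was 8.67% at RnrS and -2.06% at stg. None of these differences passed the authors' test.

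Enrichment over input, as the authors' peak caller gave it, was ranked within each list. In the LacZ list it was 11.1 at RnrS (percentile 85.4), 4.78 at CycA (percentile 68.5), 2.99 at E2f2 (percentile 49.3), 2.95 at RnrL (percentile 48.7), 2.57 at Cdk1 (percentile 40.5) and 2.40 at CycE (percentile 35.5). E2f2 and RnrL were thus close to the median peak of that list, 3.03, with Cdk1 and CycE below it. In the H1 knockdown list, whose median was 3.64, it was 15.9 at RnrS (percentile 88.5), 6.23 at CycA (percentile 69.8), 4.64 at RnrL (percentile 60.1), 4.60 at E2f2 (percentile 59.8) and 3.08 at Cdk1 (percentile 42.1).

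Levels were compared between genes per length, as normalised reads per kb of the LacZ list's entry in LacZ cells. The order was stg with 919, RnrS with 791, CycE with 716, CycA with 635, E2f2 with 578, RnrL with 519 and Cdk1 with 507. The median in LacZ of all promoter entries, taken from both lists, was 634. It is not on quite the same basis, since the entries of CycA and RnrL used here are not annotated as promoters. With no values per library, neighbours in this order cannot be separated from the spread between libraries.

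RNAPII peaked just downstream of the start at the genes whose TSS could be placed from the authors' distances. The summit lay 73 bp downstream of the TSS at Cdk1 in the LacZ list and 87 bp in the H1 knockdown list. It lay at 61 and 66 bp at RnrL, 43 and 44 bp at E2f2, 42 and 41 bp at RnrS, and 41 and 40 bp at stg, in the same order of lists. Over 3752 promoter entries with a placed TSS, the median summit was 48 bp downstream, and the 25th and 75th percentiles were 35 and 64 bp. Of these 5 genes, the summits of the lists lay farthest apart at Cdk1, which also had the summits farthest from its TSS.

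Folds of all genes were lower where RNAPII was higher, and the members followed that order in part. In 4 bins of about equal size by mean concentration, the 4000 genes had median folds of 0.27, 0.21, 0.14 and 0.08 from the lowest bin to the highest. Cdk1, CycE, E2f2 and RnrL were in the second bin, where the 25th and 75th percentiles of the fold were 0.13 and 0.29. RnrL, E2f2 and, at its wider entry, Cdk1 lay above that range. CycE lay below it at its only promoter entry, which is of the LacZ list. RnrS and stg were in the highest bin, where those percentiles were 0.04 and 0.14, with RnrS at 0.12 between them and stg below both. Fold and concentration come from the same reads and from entries of unequal width, whose part in this order was not tested. The bins also hold genes with promoter entries in 1 list only. These were 20.2% of all genes for the H1 knockdown list and 5.95% for the LacZ list. Being kept through a single list bears on the fold, and its part in this order was not tested either.

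**Figure D2:**
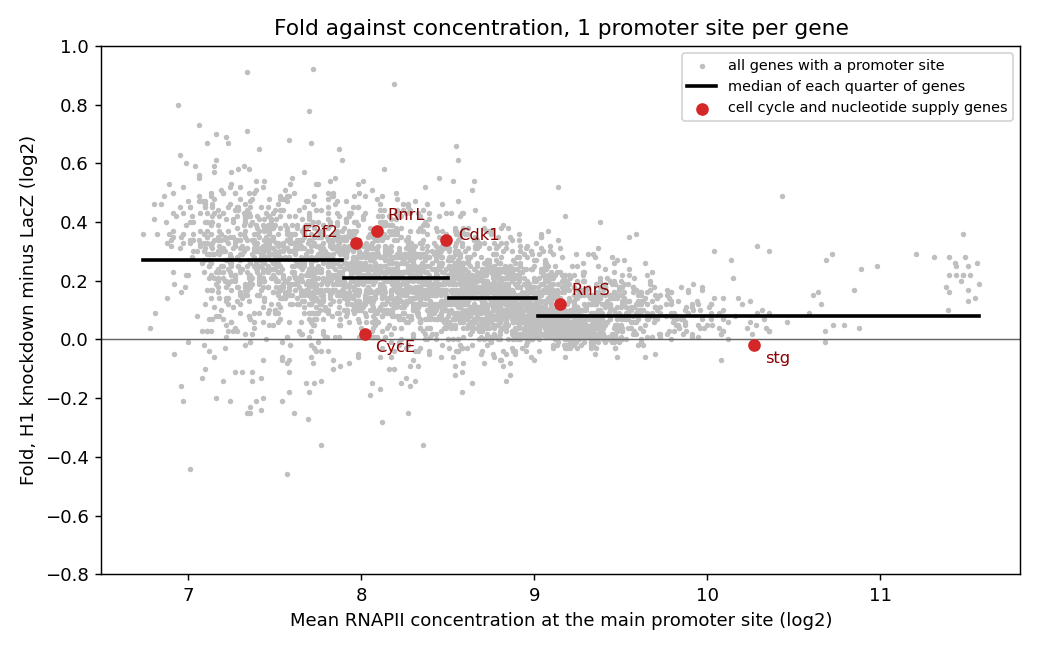
Fold (log2, H1 knockdown minus LacZ) against mean concentration (log2) at 1 promoter site per gene, in grey for all 4000 genes and in red for the 6 members, with black bars for the median of each of the 4 bins of genes. One gene lies outside the plotted range of -0.8 to 1.0. RnrL, E2f2 and, at its wider entry, Cdk1 lie above the bar of their bin. Below theirs lie stg and, at its LacZ entry, CycE.

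The 3 genes without an entry have neighbours that do have one, by gene order in Release 6. RPA1, a subunit of the single-strand binding protein of replication, lies next to Mcm2 and had a fold of 0.25 with a p of 0.196 in the authors' deposited table. Art1, next to Mcm5, had 0.16 in the authors' deposited table. E2f1 lies between InR, at 0.02, and Archease, at 0.33, in the authors' deposited table. Both lists hold only peaks with a -log10 q of at least 1.3, so a gene without an entry has no value here and is not shown to lack RNAPII. Each entry also carries a single gene name, so a peak near such a gene may stand under a neighbour's name, as in the CycE region.

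The wider pathway was read from 5 lists of 84 other genes, of which 47 had a promoter entry. The fold was above 0 at each of the 47 and its median was 0.17, where 94.2% of all genes had a fold above 0. By list, in the order below, 3, 4, 3, 1 and 2 genes had promoter entries only in the H1 knockdown list. That held for 20.2% of all genes with a promoter entry. Another 0, 1, 2, 0 and 1 had them only in the LacZ list, beside 5.95% of all genes. An entry kept only through the H1 knockdown list favours a fold above 0, so that sign is not independent of the peak calling. The authors called 2 of the 47 higher and 0 lower, both with an FDR of 1, beside 6.68% called higher and 0.025% called lower of all genes at 1 promoter site each.

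Of 18 cyclins, kinases and their regulators, 10 had a promoter entry, with a median fold of 0.175. Folds in the authors' deposited table ran from 0.04 at dap, a Cdk inhibitor, and 0.11 at polo, a mitotic kinase, to 0.27 at Rca1, an inhibitor of the anaphase-promoting complex. CycD and CycJ each had 0.22 in the authors' deposited table. Of 9 genes of the E2F, RB and Myb-MuvB complex, 6 had a promoter entry, with a median of 0.29. The 2 called genes were both here: Rbf2, an RB family member, at 0.52 with a p of 0.0325, and lin-52, a complex subunit, at 0.48 with a p of 0.0211, from the authors' deposited table. The only entry of Rbf2 came from the H1 knockdown list, so its fold and call are not independent of the peak calling. That of lin-52 came from the LacZ list. The lowest were Caf1-55 at 0.09 and Dp, the partner of E2F proteins, at 0.13 in the authors' deposited table. In LacZ, Rbf2, lin-52 and Dp had low concentrations of 6.69, 7.30 and 7.69, and Caf1-55 had 9.30, in the authors' deposited table. By mean concentration, the first of these fall in the lowest bin of all genes, whose median fold was 0.27. Caf1-55 falls in the highest bin, with a median of 0.08. Whether the median of this list goes with its concentrations was not tested.

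Of 21 origin licensing and helicase genes, 9 had a promoter entry and the median was 0.14. CDC45L, a helicase cofactor, had 0.29 and Mcm3 had 0.27, while Mcm7 had 0.04 and Orc6 and chif had 0.07 each, in the authors' deposited table. Of 18 replication fork genes, 6 had a promoter entry, with a median of 0.21. RfC38, a clamp loader subunit, had 0.33 and RfC4 0.26, against 0.05 at RPA2 and 0.08 at PCNA, the sliding clamp, in the authors' deposited table. Nucleotide synthesis was the best covered list, with 16 of 18 genes and a median of 0.16. CTPsyn, the CTP synthase gene, had 0.36 and r, of pyrimidine synthesis, 0.33, while Paics and ras, both of purine synthesis, had 0.02 and 0.04 in the authors' deposited table.

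**Figure D3:**
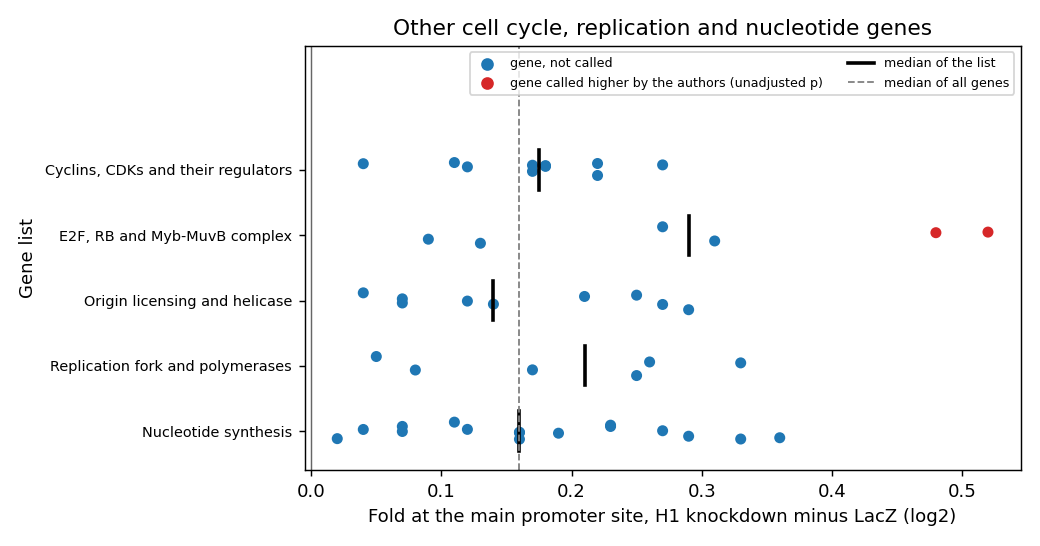
Fold (log2, H1 knockdown minus LacZ) at 1 promoter site per gene in the 5 lists, with 1 point per gene, a black bar for each list's median and a dashed line for the median of all genes, 0.16. All points lie above 0, and the 2 red points, Rbf2 and lin-52, are those the authors called at an unadjusted p under 0.05.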

How the data were processed

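Per the submitters' processing notes, the genome build was dm3 and the tools were DiffBind 2.10.0, DESeq2, MACS 1.4.2 and Bowtie2 2.2.2, and no settings are named. Column and peak names say MACS2, so the version of the peak caller is not settled. The deposited table gives the authors' log2 concentrations, log2 folds, p-values and calls, and the deposited peak lists, pooled by condition as the peak names say, give a fold enrichment ratio over input and the −log10 of q. The scaling between libraries is not stated, so folds have no fixed zero. Depth is unknown.

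The table's 14357 entries are the 7472 and 6885 peaks of the lists. Medians, percentiles, bins by concentration and reads per kb (2 to the concentration, per entry length) were computed with Python 3.11.15, numpy 2.4.6, pandas 2.3.3 and matplotlib 3.10.9. A TSS was placed where entries sharing a transcript fitted 1 strand only. Genes were matched by gene number through a Release 6 table, used for names and gene order only. The choice of main site and the TSS step were tested on simulated data. No test was run here, because values of single libraries were not among the files used.

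The genes, lists and comparisons were chosen with earlier results of these data known. Named were all 10 genes, genes sharing their sites, and in each list the 2 highest and 2 lowest folds and any called gene. The planned promoter motif and protein comparisons were not run, since no sequence was used here. Alternatives concerned the site per gene, the peak list, the promoter window, the threshold, the overlap, the reference level and low values.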

Additional observations from a re-analysis of the deposited data

How the results depend on the processing

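No gene of the 10 had a called site under an FDR of 0.05, an FDR of 0.1, the authors' unadjusted calls, or loci merged at either overlap (8 loci). A promoter entry of 6 genes overlapped a peak of any annotation in the other list (at 4 genes both were annotated as its promoter), and this count was 6 with a −log10 q of at least 5 and with an overlap of 50% of the shorter peak. The median fold of the genes, 0.225, depended on the site: it was 0.16 with the promoter site closest to the TSS, 0.195 with the mean of all promoter sites, 0.12 with the LacZ list only (5 genes) and 0.33 with the H1 knockdown list only (5 genes). The 2 lists do not hold the same genes, since CycE has a promoter entry only in the first and RnrL only in the second. The median was 0.22 with the mean of all sites and 0.23 with sites within 500 or 1000 bp of a TSS. These settings take in CycA and so cover 7 genes, while the 0.225 covers 6 without it. With any site within 500 bp of a TSS, added after the data were seen, the median of the E2F, RB and Myb-MuvB list was 0.27 and that of the replication fork list 0.25; the medians of the other 3 lists did not move. Values without replicates were counted as unchanged within 0.01. Relative to the median of all promoter entries, 0.15, the folds were 0.22 at RnrL, 0.19 at the wider entry of Cdk1, 0.18 at E2f2 and 0.08 at CycA. They were -0.03 at RnrS, -0.13 at the LacZ entry of CycE and -0.17 at stg, so RnrS and CycE turn below 0 on that scale. This reference is not matched for concentration. RnrS and stg were in the highest bin of concentration, with a median fold of 0.08, and CycE in the second, with 0.21. No paired analysis was possible because values of single libraries were not among the files used, and leaving out a replicate was not run for the same reason.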

Other observations

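RnrL and Cdk1 lie 58319 bp apart on 2L by their TSS, and the median folds of the genes around each were above the 0.16 of all genes. These windows were chosen after the data were seen. The 0.16 is not matched for concentration, and the median fold of all genes ran from 0.27 in the lowest bin of concentration to 0.08 in the highest. The part of concentration in these medians was not tested. Within 50000 bp of Cdk1, 15 other genes had a promoter entry, with folds between 0.09 and 0.57 and a median of 0.33. Of these, the authors called 5 higher at an unadjusted p under 0.05, each with an FDR of 1, where 6.68% of all genes were called higher at 1 promoter site each. They were CG17768 (0.57), Mdh1 (0.49), CG33303 (0.36), SmB (0.35) and TfIIB (0.34) in the authors' deposited table. Around RnrL, 16 genes had a median of 0.28, with 15 above 0 and CG5381 at -0.25, and the called genes were GATAd (0.40) and CG33303 in the authors' deposited table. Both windows share genes, and around RnrL the entry of Cdk5alpha lies within that of l(2)SH0834 and shares its reads. The median was 0.12 over 7 genes around E2f2, none of which had a fold above that of E2f2. It was 0.19 over 5 genes around CycA, of which 2 were above CycA. It was 0.25 over 7 genes around RnrS, 0.22 over 4 genes around CycE and 0.06 over 3 genes around stg, all above the member's own fold. One of the 4 genes around CycE is lncRNA:CR44974, whose entry overlaps that of CycE and shares its reads. No test of a region was made.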
